A study of Mus musculus with 9 samples.

Results

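The genes of 10 Toll-like receptors, Tlr1 to Tlr9 and Tlr13, were read across 3 gates of wound myeloid cells. They were chosen by gene name, with earlier results of these data known, and they are 10 of the 22180 genes tested on the arrays. Each receptor was measured by 1 probe set that carries its symbol alone. All arrays came from male C57BL/6J mice aged 8 weeks, at 24 h after an incision of the plantar hindpaw. The suspended tissue was sorted for cells that carry CD11b, a myeloid integrin subunit, and lack Ly6G, a neutrophil surface protein. The sort then split them into Ly6C low, Ly6C medium and Ly6C high cells, with 3 arrays per gate. Ly6C is high on monocytes fresh from the blood. No unwounded paw is among the samples, so the gates can be compared only with each other.

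Toll-like receptors are membrane proteins whose leucine-rich repeats bind microbial molecules and material from damaged cells. Some sit at the cell surface and recognise lipopeptides, lipopolysaccharide or flagellin. Others sit in endosomes and recognise nucleic acids. Through adaptors, MyD88 for most of them and TRIF for TLR3 among others, they switch on NF-kB and interferon regulatory factors. In myeloid cells of a wound they are an early trigger of cytokine release.

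The transcripts of the sorted proteins were checked first. Ly6c2, which encodes Ly6C, stood at 7.69, 7.90 and 9.40 (log2 intensity) on the low arrays, 11.27, 11.20 and 11.20 on the medium arrays and 12.26, 12.48 and 12.08 on the high arrays. Itgam, which encodes CD11b, lay between 10.43 and 11.14 on all 9 arrays. Ly6g lay between 2.74 and 4.61, below the dim limit of 6 used here. Low replicate 3 was nearest to the other gates in Ly6c2, so each receptor's low minus high difference is given below without it as well. In bulk samples such as these, fewer cells of a type and less RNA per cell cannot be told apart. Whether the replicates are separate animals is not stated, so the p-values rest on a spread between arrays that may be technical.

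Of the 10 receptors, Tlr9 was lower in Ly6C low than in Ly6C high cells, and none of the others passed the threshold (limma adjusted p under 0.05 over all genes tested). For single receptors, 1 of 10 was lower and 0 were higher, against 2.32% and 3.35% of all genes. At an unadjusted p under 0.05, 3 receptors were lower and 1 was higher, against 7.46% and 10.4% of all genes. Among genes with a mean log2 intensity of at least 6, where 9 of the receptors lie, 6.6% were called lower, so the receptors' count was near this background. The fitted difference was negative for 9 of 10 receptors, with a median of -0.30 on the log2 scale. Over all genes 47.3% of differences were negative and the median was 0.01. Only 5907 of the 22180 genes tested have a mean log2 intensity of at least 6. The unadjusted, sign and overlap shares, here and below, are over all genes and not over those bright ones. Each array below is given as a log2 intensity, and levels were compared between gates for 1 gene and not between genes, because probe sets differ in brightness.

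**Figure D1:**
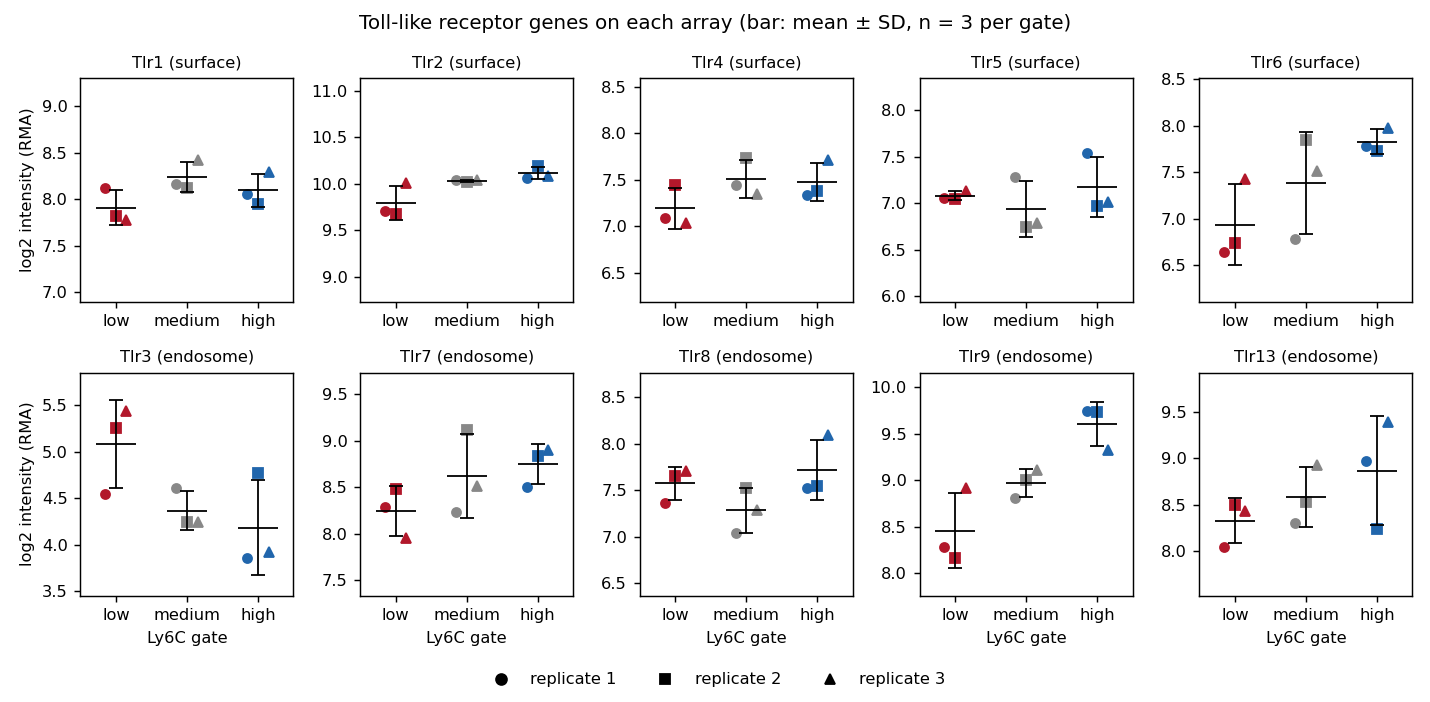
Log2 intensity (vertical axis, each panel spanning the same log2 range) of the 10 receptor genes in the Ly6C low, medium and high gates (horizontal axis); points are arrays, with the marker shape giving the replicate, and black bars show the mean ± SD of 3 arrays. The Tlr9 arrays of low (8.17 to 8.92) lie below those of high (9.33 to 9.75), while Tlr5 overlaps in all gates.

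Tlr9 encodes the endosomal receptor for unmethylated CpG DNA of bacteria and viruses. It stood at 8.29, 8.17 and 8.92 on the low arrays, 8.81, 9.01 and 9.11 on the medium arrays and 9.75, 9.73 and 9.33 on the high arrays. All low arrays were below all high arrays, all medium arrays were also below all high arrays, and low replicate 3 fell among the medium arrays. The gate means were 8.46 ± 0.40 in low, 8.97 ± 0.15 in medium and 9.60 ± 0.24 in high (SD, n = 3 each). The low level was 2.22-fold below the high level (log2 difference of -1.15 with an SE of 0.21, limma adjusted p = 0.0143). The moderated F test over the 3 gates also called it (adjusted p = 0.0369), alone among the receptors, against 4% of all genes. That F call was lost in 7 of the 9 fits with 1 array left out, all but those without low replicate 3 or high replicate 3, and also with the replicate number as a block. Medium versus high (log2 difference -0.63, adjusted p = 0.488) and low versus medium (-0.52, adjusted p = 0.289) were not past the threshold, so this test did not separate neighbouring gates.

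The call of Tlr9 depended on which arrays were in the fit. It was lost without low replicate 1 (limma adjusted p = 0.0604), without low replicate 2 (0.0547) and without high replicate 2 (0.0518), and kept without each of the other 6 arrays. Without low replicate 3 the difference was -1.38 (adjusted p = 0.00419). With only the low and high arrays in the fit it stood at an adjusted p of 0.0568. The difference stayed between -1.38 and -1.0 with any 1 array left out.

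**Figure D2:**
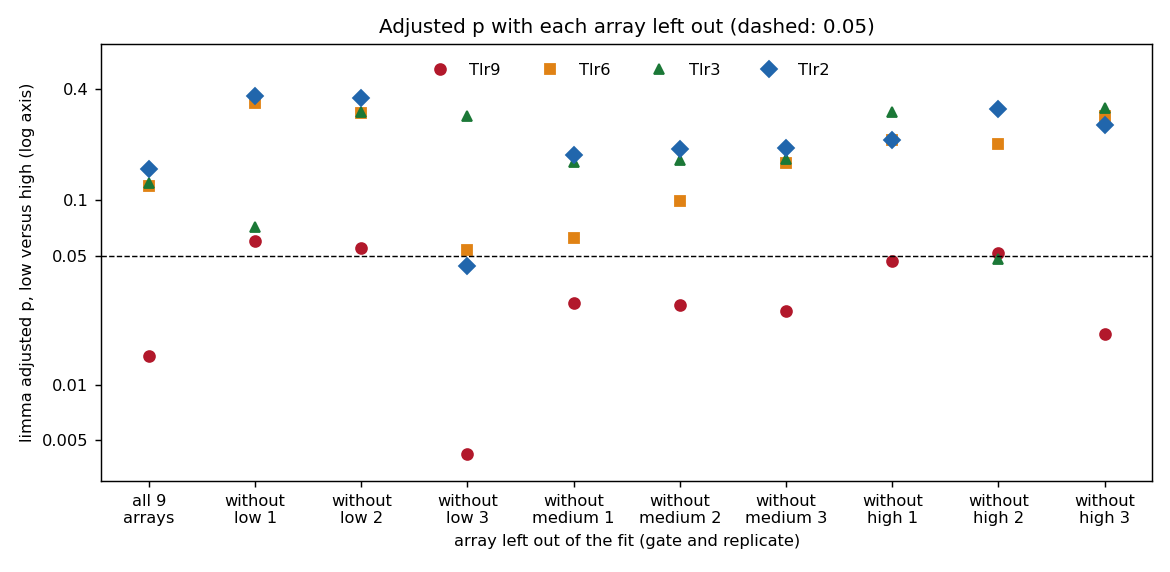
Limma adjusted p for low versus high (vertical axis, log scale) of Tlr9, Tlr6, Tlr3 and Tlr2 with all 9 arrays and with each array left out in turn (horizontal axis); the dashed line is 0.05. Tlr9 lies above the line without low replicate 1, low replicate 2 or high replicate 2, and Tlr2 and Tlr3 each fall below it in 1 case.

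Promoter windows, from 250 bases before to 50 bases after the gene start, were found for 8 of the 10 receptors (10 windows, since Tlr1 and Tlr6 have 2 starts each), and not for Tlr4 and Tlr7, in RefSeq sequence of GRCm38.p6. Those of Tlr9, the receptor that passed the test, and Tlr3, the receptor whose difference had the opposite sign, are shown because they stand at opposite ends of the family. The Tlr9 window is chr9:106222348-106222647 on the plus strand, and that of Tlr3 is chr8:45410331-45410630 on the minus strand. Capitals mark every match, on either strand, to 5 motifs named next.
Tlr9 promoter: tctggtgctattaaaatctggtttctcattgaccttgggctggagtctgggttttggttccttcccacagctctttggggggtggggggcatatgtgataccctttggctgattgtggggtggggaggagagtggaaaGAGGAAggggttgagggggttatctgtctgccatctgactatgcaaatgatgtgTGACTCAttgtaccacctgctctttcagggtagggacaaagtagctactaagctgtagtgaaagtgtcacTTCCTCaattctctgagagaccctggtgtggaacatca
Tlr3 promoter: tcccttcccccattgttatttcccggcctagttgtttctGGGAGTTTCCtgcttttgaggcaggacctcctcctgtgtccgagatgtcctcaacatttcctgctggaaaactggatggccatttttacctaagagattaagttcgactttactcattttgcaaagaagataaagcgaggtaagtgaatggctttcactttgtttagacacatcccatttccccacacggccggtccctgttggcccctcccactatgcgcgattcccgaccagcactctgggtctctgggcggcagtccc

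The motifs were the core GAGGAA of PU.1, the main transcription factor of myeloid cells, an interferon response element (GAAA, any 2 bases, GAAA), a composite ETS and IRF element (GGAA, any 2 bases, GAAA), an AP-1 site (TGA, any 1 base, TCA) and an NF-kB site (GGGA, any 1 base, TTTCC). The interferon and composite elements can overlap, for example where the closing GAAA of a composite element opens an interferon response element. Tlr9 held the PU.1 core on both strands at separate places. It also held 1 AP-1 site, where the motif matches on both strands at the same place. The capitals of Tlr3 are an NF-kB site. The PU.1 core was found in 4 of the 8 receptors with a window, Tlr1, Tlr8, Tlr9 and Tlr13, and in 28.3% of all 32851 promoter windows. For Tlr1 only 1 of its 2 windows held it. Receptors are counted here by gene, with a match in any window, while the shares are by window, so the units differ. The AP-1 site was in 1 receptor and in 7.81% of all windows, the NF-kB site in 1 and 0.411%. The interferon response element was in Tlr6 alone, in 2 overlapping copies, and in 3.44% of windows. The composite element was in 0 of the receptors and in 2.72% of windows. These are matches of letters, not measured binding.

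Among the surface receptors, Tlr2, Tlr1 and Tlr6 encode the lipopeptide sensors, in which TLR2 pairs with TLR1 for triacylated and with TLR6 for diacylated lipopeptides. Tlr2 stood at 9.71, 9.68 and 10.01 on the low arrays, 10.04, 10.02 and 10.04 on the medium arrays and 10.07, 10.19 and 10.09 on the high arrays. The gates did not overlap and were ordered low, medium, high, but the steps were small. Low minus high was -0.32 with a 95% interval of -0.56 to -0.07 (limma adjusted p = 0.146), a difference of 1.25-fold that was not past the threshold. Without low replicate 3 it was -0.42 and passed (adjusted p = 0.0437). All intervals are for 1 gene and are not adjusted over genes.

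Tlr6 stood at 6.64, 6.74 and 7.43 on the low arrays, 6.78, 7.85 and 7.52 on the medium arrays and 7.79, 7.73 and 7.98 on the high arrays. Low and high did not overlap, while medium replicate 1 fell among the low arrays. Low minus high was -0.89 (SE 0.28, 95% interval -1.53 to -0.25, limma adjusted p = 0.119), not past the threshold, and -1.14 without low replicate 3 (adjusted p = 0.0539). Tlr1, the coding gene next to Tlr6 on chromosome 5, stood at 8.12, 7.82 and 7.78 in low, 8.16, 8.12 and 8.42 in medium and 8.05, 7.95 and 8.29 in high. Low and high overlapped (log2 difference -0.19, 95% interval -0.51 to 0.13, adjusted p = 0.583, and -0.13 without low replicate 3). The low arrays were below the medium arrays (-0.33, adjusted p = 0.337) by almost no margin, since the nearest pair both round to 8.12. Tlr1 and Tlr6 are close paralogs, and whether their probes bind each other's RNA was not tested.

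Tlr4 encodes the lipopolysaccharide receptor and Tlr5 the flagellin receptor. Tlr4 stood at 7.09, 7.44 and 7.04 in low, 7.44, 7.74 and 7.35 in medium and 7.34, 7.38 and 7.71 in high. The gates overlapped (low minus high -0.28, 95% interval -0.65 to 0.08, limma adjusted p = 0.429, and -0.21 without low replicate 3). Tlr5 stood at 7.06, 7.04 and 7.14 in low, 7.28, 6.74 and 6.79 in medium and 7.54, 6.97 and 7.01 in high. Low lay within the range of high, and the difference of -0.09 had a 95% interval of -0.52 to 0.33 (adjusted p = 0.884). It was -0.12 without low replicate 3, and its sign turned without high replicate 1, the highest of the 9 arrays (0.09).

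Tlr7, Tlr8 and Tlr13 encode endosomal receptors of RNA, and all 3 genes lie on the X chromosome. TLR7 binds single-stranded RNA, and Tlr7 and Tlr8 are neighbouring genes, while TLR13, which humans lack, detects bacterial ribosomal RNA. Tlr7 stood at 8.29, 8.48 and 7.95 in low, 8.23, 9.12 and 8.51 in medium and 8.50, 8.84 and 8.90 in high. Low was below high on every array by a small margin (8.48 against 8.50 at the nearest), with a difference of -0.51 (95% interval -1.03 to 0.02, limma adjusted p = 0.301). Without low replicate 3, the lowest low array for this gene, it was -0.36 (adjusted p = 0.572). Tlr13 stood at 8.05, 8.49 and 8.43 in low, 8.30, 8.52 and 8.93 in medium and 8.97, 8.24 and 9.39 in high. High spread most (SD 0.58, n = 3), and its replicate 2 fell among the low arrays (low minus high -0.54, 95% interval -1.18 to 0.10, adjusted p = 0.386). That difference was -0.85 without high replicate 2 (limma adjusted p = 0.0949), -0.28 without high replicate 3 (0.751) and -0.59 without low replicate 3 (0.448). Tlr8 stood at 7.37, 7.65 and 7.70 in low, 7.04, 7.52 and 7.29 in medium and 7.52, 7.55 and 8.09 in high. Its mean was lowest in medium (7.57 ± 0.18 in low, 7.29 ± 0.24 in medium and 7.72 ± 0.32 in high). Neither medium minus high (-0.43, adjusted p = 0.649) nor low minus high (-0.15, 95% interval -0.57 to 0.28, adjusted p = 0.801) was past the threshold, and low minus high was -0.21 without low replicate 3.

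Tlr3, the endosomal receptor for double-stranded RNA, was the only member with a positive low minus high difference. It stood at 4.55, 5.25 and 5.44 in low, 4.61, 4.24 and 4.24 in medium and 3.86, 4.77 and 3.93 in high. All 9 values were under the dim limit of 6, and low replicate 1 lay under medium replicate 1 and high replicate 2. The difference was 0.90 (SE 0.29, 95% interval 0.24 to 1.55, limma adjusted p = 0.124), not past the threshold. It passed only without high replicate 2 (1.19, adjusted p = 0.0478) and was 0.71 without low replicate 3 (adjusted p = 0.287). Over the alternatives that kept all 9 arrays it ranged from 0.80 to 0.90.

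**Figure D3:**
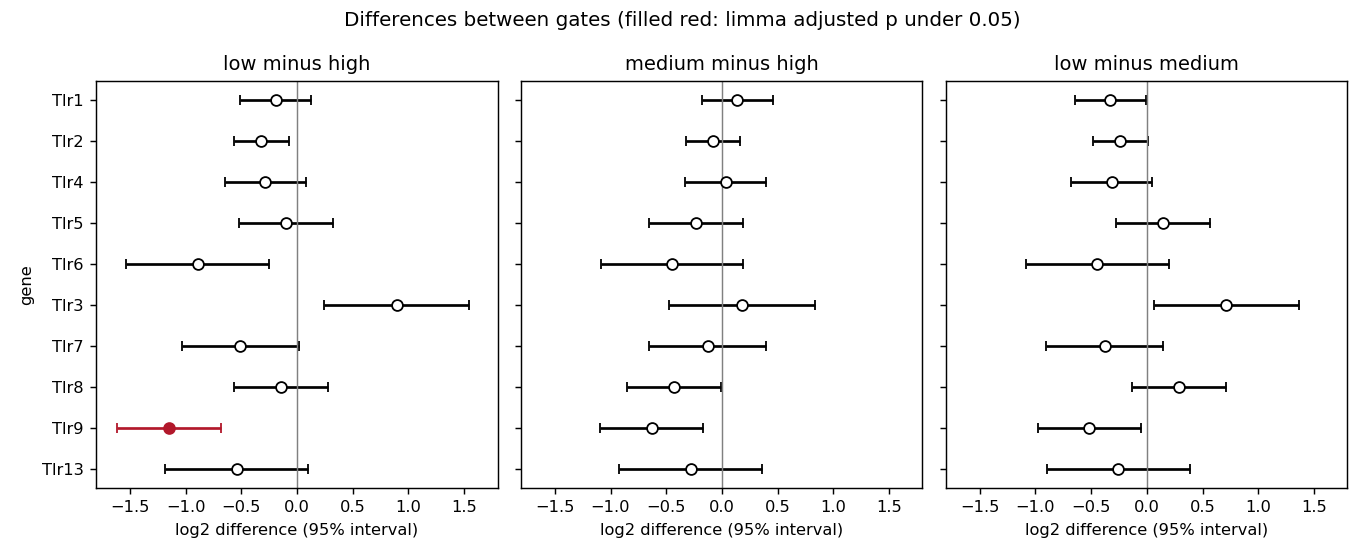
Log2 differences between gates (horizontal axis) with 95% intervals for each receptor gene (vertical axis), for low minus high, medium minus high and low minus medium; filled red marks a limma adjusted p under 0.05. Tlr9 in low minus high (-1.15) is the only red point, and Tlr3 is the only receptor to the right of 0 in that panel.

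The neighbouring gates gave no calls among the receptors. For medium versus high, limma called 0 of 10 receptors, against 2 lower and 0 higher at an unadjusted p under 0.05 (Tlr9 and Tlr8, chosen after their values were seen). Over all genes 0.239% were called in this comparison, and at the unadjusted p 3.81% were lower and 3.72% higher. For low versus medium it called 0 of 10, against 2 lower (Tlr9 and Tlr1) and 1 higher (Tlr3) at an unadjusted p under 0.05, also named after their values were seen. Over all genes 1.93% were called there, and at the unadjusted p 5.53% were lower and 8.54% higher. By overlap, 4 receptors had every low array below every high array, namely Tlr2, Tlr6, Tlr7 and Tlr9, against 8.76% of all genes in that direction. In medium versus high, Tlr2 and Tlr9 were separate in this way, against 4.93% of all genes. In low versus medium, Tlr1 and Tlr2 were, against 7.58%, both by small margins (10.01 against 10.02 at the nearest for Tlr2). The overlap shares are over all genes and were not taken among genes with a mean log2 of at least 6. Without low replicate 3 no receptor passed in low versus medium, with Tlr9 nearest at -0.75 (limma adjusted p = 0.0589). The comparisons share the arrays of a gate and are not independent of each other.

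By place in the cell, the 5 surface receptors had a median low minus high difference of -0.28 and the 5 endosomal receptors one of -0.51. The surface differences ran from -0.89 (Tlr6) to -0.09 (Tlr5), and the endosomal ones from -1.15 (Tlr9) to 0.90 (Tlr3). The ranges overlapped, and the positive end of the endosomal range was set by Tlr3 alone. The difference between the classes was not tested.

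Markers of some other cell types moved with the same gates. The mean of 14 classical monocyte genes was 7.74, 7.77 and 8.41 on the low arrays. It was 9.45, 9.38 and 9.50 on the medium arrays and 10.07, 10.10 and 10.14 on the high arrays. Ly6c2, whose protein defined the gates, is 1 of the 14, so part of this order was set by the sort. Of the 14, 11 were lower in low than in high and 0 higher. F13a1 went the other way without passing (low minus high 0.88, limma adjusted p = 0.0541). The gate means of Tlr9, Tlr6, Tlr2, Tlr7 and Tlr13 had the same order. Low replicate 3, the highest low array for the monocyte genes, was also the highest for Tlr9, Tlr6 and Tlr2. It was the highest low array as well for Tlr3, Tlr5 and Tlr8, whose gate means did not have that order. For Tlr1, Tlr4 and Tlr7 low replicate 3 was the lowest low array (7.78, 7.04 and 7.95), and for Tlr13 it lay between the others (8.43). The mean of 11 fibroblast genes was 4.77 to 4.98 in low, 5.33 to 5.48 in medium and 7.0 to 8.13 in high, with 9 of 11 lower in low than in high. High replicate 3 had the lowest fibroblast mean and the lowest Tlr9 (9.33) of its gate. For no other receptor was it the lowest high array, and for Tlr1, Tlr4, Tlr6, Tlr7, Tlr8 and Tlr13 it was the highest. Tissue macrophage genes ran the other way, from 9.75 to 9.99 in low, 8.08 to 8.75 in medium and 7.38 to 7.87 in high, with 13 of 14 higher in low.

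Neutrophil genes, which the gate on Ly6G should remove, had means of 5.03, 5.49 and 6.28 in low, 5.04, 5.29 and 5.75 in medium and 4.44, 4.84 and 4.95 in high. Low replicate 3 was the highest array here too, with Cxcr2 at 7.58 against 5.08 and 5.02 on the other low arrays, and S100a8 at 10.37 against 7.25 and 8.57. Of 10 neutrophil genes 1 was higher in low than in high, Retnlg (5.85, 7.11 and 7.70 in low against 2.90, 2.45 and 3.59 in high, limma adjusted p = 0.00712), and 1 was lower, Csf3r (2.19-fold, adjusted p = 0.0269). Eosinophil genes had 3 of 7 higher in low and 0 lower, with means of 4.25 to 4.43 in low, 3.69 to 4.05 in medium and 3.53 to 3.73 in high. Endothelial genes had 1 of 10 lower and keratinocyte genes 1 of 7 higher. T and NK cell genes had 0 of 9 called, and mast cell and basophil genes 0 of 8. Over all genes 2.32% were lower and 3.35% higher in low than in high, and these shares stand beside every marker list here.

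Dendritic cell genes, 7 of 14 of them higher in low and 0 lower, had means of 6.47 to 6.63 in low, 5.05 to 5.20 in medium and 4.72 to 5.11 in high. Tlr3 is known in cross-presenting dendritic cells, which need Batf3 and carry Xcr1. Batf3 stood at 6.58, 6.23 and 5.84 in low and 5.95, 5.05 and 4.41 in high (2.11-fold, limma adjusted p = 0.147), and Flt3, a growth factor receptor of dendritic cells, was 3.09-fold higher in low (adjusted p = 0.00198). Xcr1 stood at 4.57, 4.64 and 4.36 in low and 4.92, 4.68 and 5.41 in high (adjusted p = 0.402), below the dim limit on all these arrays. Plasmacytoid dendritic cells and B cells are known for high Tlr7 and Tlr9. Of 9 plasmacytoid genes 7 had a mean below the dim limit, among them Siglech, while Bst2 (10.04, 10.31 and 10.17) and Tcf4 (8.88, 8.59 and 8.57, means in low, medium and high) were bright in every gate, and Ly6d reached 8.44 on high replicate 2. All 7 B cell genes were below the limit. Limma called 0 of 9 plasmacytoid and 0 of 7 B cell genes between low and high, against 2 higher and 1 lower, and 0, at an unadjusted p under 0.05. At that unadjusted p 10.4% of all genes were higher and 7.46% lower. The part of any of these cell types in the receptor differences was not tested.

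**Figure D4:**
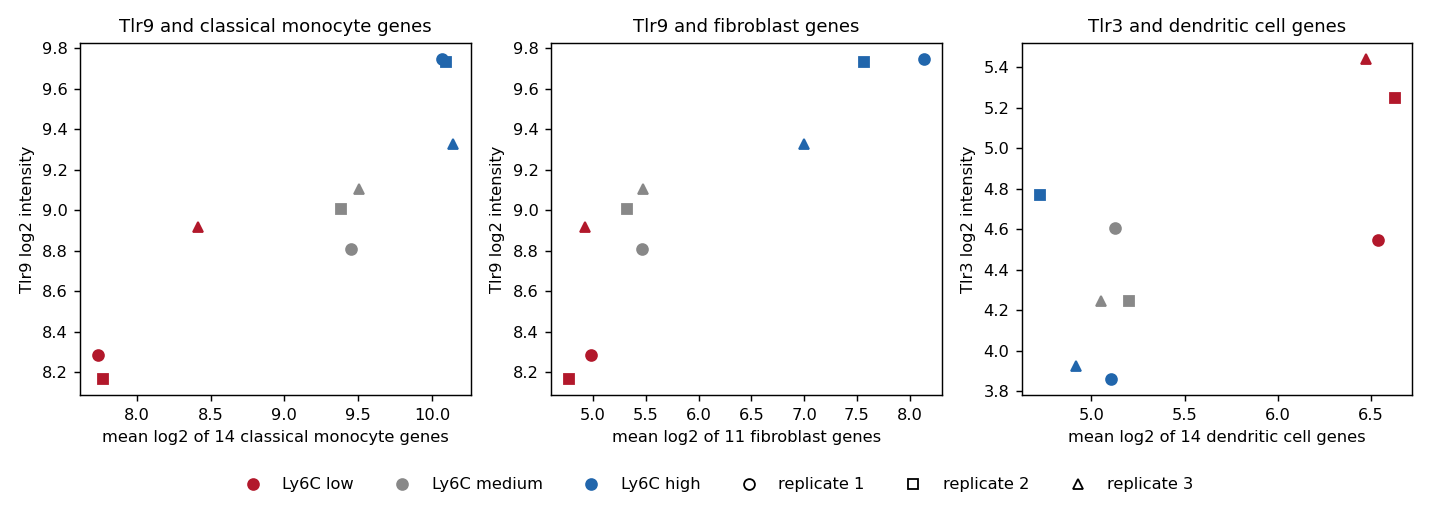
Tlr9 against the mean log2 intensity of 14 classical monocyte genes (left) and of 11 fibroblast genes (centre), and Tlr3 against 14 dendritic cell genes (right); each point is an array, coloured by gate, and both axes are log2 intensity. Low replicate 3 (8.92 for Tlr9) lies between the other low arrays and the medium arrays along the monocyte axis and among the medium arrays along the Tlr9 axis, and low replicate 1 (4.55 for Tlr3) sits apart from the other low arrays on the right.

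Partners of the receptors changed in both directions between low and high. Of 89 measured genes in 6 lists for the pathway, 4 were higher and 5 lower in low than in high. That is 10.1%, against 5.67% of all genes (3.35% higher and 2.32% lower). Most pathway genes had a mean log2 intensity of at least 6. Among all genes that bright, 6.6% were called lower, so the 5 lower calls were near that background. The share of higher calls among bright genes is not given here. The median difference of the 89 genes was -0.09. Accessory receptors held 4 of the 9 calls. Lbp, the secreted protein that hands lipopolysaccharide to CD14, stood at 5.72, 5.21 and 5.73 in low, 6.15, 5.97 and 5.74 in medium and 9.38, 8.53 and 8.00 in high. The low level was 8.46-fold below the high level (limma adjusted p = 0.00127), and its order within high, replicate 1 over 2 over 3, was that of the fibroblast genes (8.13, 7.57 and 7.0), whose part was not tested. Cd14, the coreceptor of TLR4, was 1.69-fold lower (11.18, 11.58 and 11.93 in low against 12.31, 12.23 and 12.42 in high, adjusted p = 0.0342). Cd36, a scavenger receptor that assists TLR2 and TLR6, was 2.37-fold higher (11.37, 11.59 and 11.37 in low against 9.89, 10.47 and 10.25 in high, adjusted p = 0.0021). Mertk, a receptor for dying cells that dampens Toll-like receptor signals, was 1.83-fold higher (adjusted p = 0.0383) and is also 1 of the 14 tissue macrophage genes. Ly96, whose product binds lipopolysaccharide beside TLR4, differed by -0.18 (adjusted p = 0.702), and Cd180, a relative of TLR4, by -0.07 (adjusted p = 0.861).

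The list for trafficking and processing covers the factors that deliver the endosomal receptors and the lysosomal enzymes and transporters around them. In it 2 of 23 genes were higher and 1 lower. Unc93b1, the chaperone that carries the nucleic acid receptors to endosomes, differed by -0.15 (10.63, 10.51 and 10.45 in low against 10.85, 10.75 and 10.43 in high, limma adjusted p = 0.696). Slc15a3, a lysosomal peptide and histidine transporter, fell 1.86-fold in low relative to high (9.65, 9.89 and 10.02 in low, 10.78, 10.72 and 10.75 in medium and 10.62, 10.83 and 10.80 in high, adjusted p = 0.00314). Ctsk, the lysosomal protease cathepsin K, was 2.47-fold higher (adjusted p = 0.0345) and Slc46a3, a lysosomal solute carrier, 1.64-fold higher (adjusted p = 0.0425).

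Downstream of the receptors, calls were few. Of 7 adaptor genes limma called 0, against 4 lower and 0 higher at an unadjusted p under 0.05. Over all genes 7.46% were lower and 10.4% higher at that unadjusted p. Myd88, the shared adaptor, was at 7.58, 7.64 and 7.26 in low against 7.98, 7.69 and 7.87 in high (log2 difference -0.35, adjusted p = 0.164). Of 19 kinases and ligases 1 was lower, Irak2, a kinase of the MyD88 complex (1.83-fold, 8.42, 8.52 and 9.06 in low against 9.48, 9.59 and 9.56 in high, adjusted p = 0.0221). Of 12 transcription factors 1 was lower, Irf7, which drives type I interferon genes after endosomal sensing and is itself induced by interferon. Irf7 stood at 8.07, 8.66 and 8.95 in low, 9.78, 9.74 and 9.74 in medium and 10.28, 10.25 and 9.79 in high, 2.91-fold lower in low than in high (adjusted p = 0.00476). Of 20 negative regulators limma called 0, against 4 lower and 1 higher at an unadjusted p under 0.05, beside 7.46% and 10.4% of all genes. Irak3, an inhibitory relative of the IRAK kinases, differed by -1.02 with arrays that did not overlap (7.56, 6.95 and 8.08 in low against 8.54, 8.15 and 8.96 in high, adjusted p = 0.125). In low versus medium, 1 of the 89 pathway genes was higher, Slc46a3 (limma adjusted p = 0.0380), and 2 were lower, Slc15a3 (0.00888) and Irf7 (0.0316). Over all genes 1.93% were called there in either direction. In medium versus high, 1 pathway gene was higher, Cd36 (limma adjusted p = 0.0404), and 1 lower, Lbp (0.0176), against 0.239% of all genes called. Of the 9 calls for low versus high, 4 held without any 1 array, those of Lbp, Cd36, Slc15a3 and Irf7, while the other 5 were each lost without at least 5 arrays in turn (up to an adjusted p of 0.133). Leaving out low replicate 1, low replicate 2, high replicate 1 or high replicate 3 ended all 5, with 4, 4, 4 and 5 pathway calls in all.

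**Figure D5:**
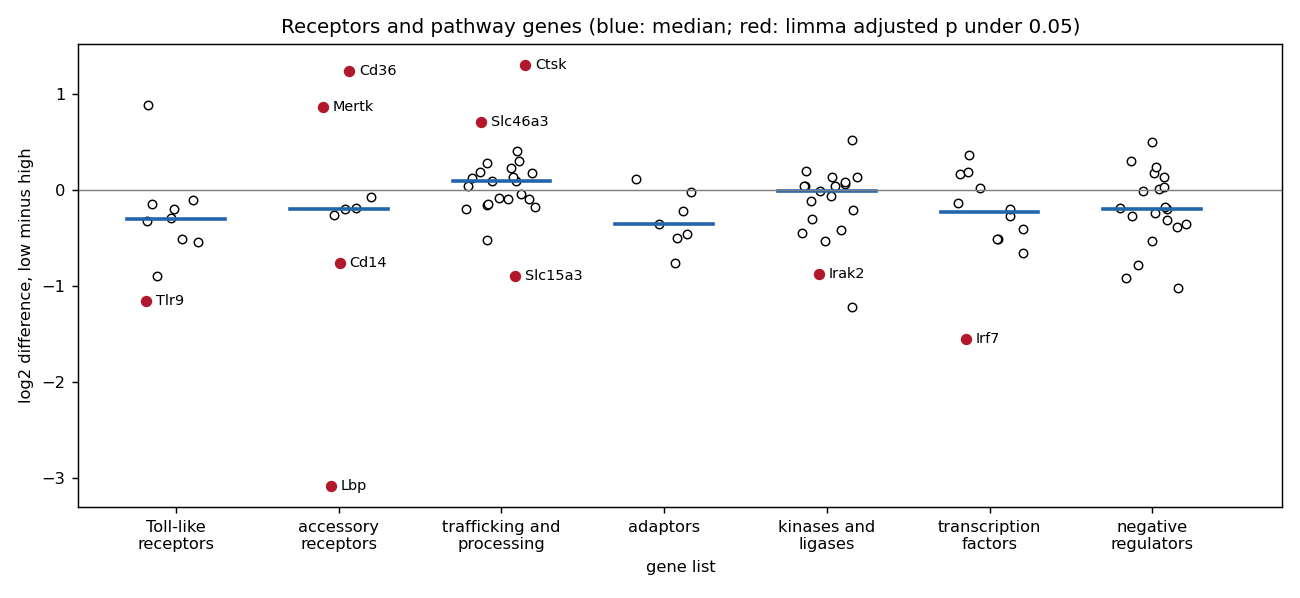
Log2 difference low minus high (vertical axis) of the 10 receptors and of the genes of 6 pathway lists (horizontal axis); each point is a gene, red and named where the limma adjusted p was under 0.05, and blue lines are list medians. The largest difference among these genes is that of Lbp (-3.08), and the adaptor and negative regulator lists hold no red point.

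The genes most like a receptor over the 9 arrays were found by the root mean square distance between profiles, each centred on its own mean, for the 3 receptors with the widest range of gate means. This is a description that includes the differences between gates. Of 5709 named genes with a mean log2 intensity of at least 6, those nearest to Tlr9 were Slc25a20, Ell and Maml1, at log2 distances of 0.163, 0.164 and 0.165. Nearest to Tlr3 were Pgrmc2, Cyp20a1 and Slc66a1, at 0.150, 0.200 and 0.254. Nearest to Tlr6 were Katna1, Tbc1d1 and Sap30l, at 0.169, 0.184 and 0.194. Within the family the nearest pair was Tlr4 and Tlr7, at 0.197, and Tlr6 and Tlr9 stood at 0.294.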

How the data were processed

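The values are log2 intensities of Affymetrix arrays, deposited by the authors and summarised per probe set by RMA per the submitters' processing notes, with version and settings not given in the sources used here. RNA was amplified before labelling, per the labels' protocols. The values were used as deposited, and the array medians over the genes tested lay between 4.16 and 4.30. Precision depends on how few arrays there are. Of 41345 probe sets, 23521 carried 1 gene symbol, and the one with the highest mean stood for each of 22180 genes. Names came from the platform table, with 23328 gene identifiers matched to RefSeq (GRCm38.p6).

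All 9 arrays were fitted together in R 4.3.3 with limma 3.58.1 (lmFit and eBayes, two-sided, 6 residual degrees of freedom), with Benjamini-Hochberg adjustment over all genes tested at a threshold of 0.05. The fit was also run on simulated data with independent noise. That run held no effect of replicate or array and no shift as small as most receptor differences, and no result here rests on it. Every receptor was named. Of each pathway list up to 4 genes past the threshold with the largest difference were named, and Unc93b1, Myd88, Cd14, Ly96, Cd180, Irak3 and Irf7 whatever their test. Irf5, chosen likewise, and 11 other of the 101 pathway genes were not analysed here. The members and lists were chosen with earlier results of these data known. Alternatives changed the scaling, the probe set, a filter on dim genes, the variance prior, the weights of arrays, a block for the replicate number and which arrays entered the fit.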

Additional observations from a re-analysis of the deposited data

How the results depend on the processing

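The count of receptors called between low and high stayed at 1 under repeated quantile normalization, centred arrays, the mean of probe sets, the filter on dim genes, a trended, robust prior, weighted arrays, the replicate block and a 2-fold limit, and was 0 with only the 2 gates compared. Each receptor had 1 probe set, so the mean of probe sets left the receptor values as they were. The 2-fold limit was applied to the main fit, where Tlr9 was 2.22-fold lower, so it could not end that call. Without 1 array in turn the count of receptors ranged from 0 to 2. The F test called 1 receptor, but 0 with the replicate block, and 0 in 7 of the 9 fits without 1 array (range 0 to 1); the cause was not tested. The counts of 0 for the neighbouring gates held under every alternative run. Pathway calls numbered 9, 6 with only the 2 gates compared and 14 with the replicate block, and ranged from 4 to 10 without 1 array. With only the 2 gates compared Cd14, Irak2, Mertk and Slc46a3 were lost, Mertk and Slc46a3 also under quantile normalization and Slc46a3 under the trended, robust prior. The labels do not say whether replicate numbers pair arrays across gates, and the main fit did not take them as pairs. Deviations of same-numbered arrays from their gate means correlated across genes by -0.02 to 0.31, highest for replicate 3 in medium versus high. Differently numbered arrays were not compared, so these values cannot decide whether the numbers mark pairs. With the block the Tlr9 call for low versus high held (limma adjusted p = 0.0239). Signs turned for differences that were never past the threshold. Tlr4 in medium minus high was 0.034, -0.011 with centred arrays and -0.081 to 0.15 without 1 array. Without 1 array, Tlr5 in low minus high ranged from -0.20 to 0.090, Tlr8 in low minus high from -0.24 to 0.041, and Tlr7 in medium minus high from -0.38 to 0.068. The dim filter removed Tlr3, which gave no value there.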
